A study of Homo sapiens with 20 samples.

Results

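Respiratory complex I is built from subunits encoded in the nucleus and subunits encoded in the mitochondrial genome, and both kinds were measured here in the RNA of 10 human colorectal cancer cell lines and of the extracellular vesicles that they shed. Members were taken by symbol: 38 nuclear NDUFA, NDUFAB, NDUFB, NDUFC, NDUFS and NDUFV genes and 7 mitochondrially encoded MT-ND genes, 45 of the 17113 genes in the count table. The lines were HCT 116, HT-29, SW480, LoVo, WiDr, COLO-201, SNU-C1, LS123, LS513 and LS1034, labelled as wild type adenocarcinoma lines without treatment and grown in RPMI-1640 or DMEM with fetal bovine serum. Each line gave 1 library of total RNA from its cells and 1 library from its vesicles, 20 libraries in all, to ask how far vesicle RNA mirrors the RNA of the cells it came from. Cell RNA was depleted of ribosomal RNA and made into stranded libraries. Vesicle RNA came from a total exosome RNA and protein kit and was copied with a low-input SMART-Seq v4 kit, which starts from poly(A) tails, before Nextera XT tagmentation. Compartment and kit coincide in every line and cannot be told apart in any difference given here. In bulk RNA, fewer vesicles and less RNA per vesicle cannot be told apart either.

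Complex I is the first enzyme of the respiratory chain. It takes electrons from NADH, passes them along a row of iron-sulfur clusters to ubiquinone and pumps protons out of the mitochondrial matrix. The hydrophilic arm consists of the N module, where NADH is oxidised, and the Q module, where ubiquinone is reduced, and all of its core subunits are encoded in the nucleus. The membrane arm has a proximal and a distal part, and all of its core subunits are encoded in mitochondrial DNA. Accessory subunits, all of nuclear origin, surround the core and are made on cytosolic ribosomes, whereas the MT-ND mRNAs are transcribed, processed and translated inside the organelle.

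Mitochondrial mRNAs also differ from nuclear ones at their ends. The vesicle kit starts from poly(A) tails, and any part of these ends in the differences given here was not tested. The last bases of the 7 MT-ND transcripts, from the GENCODE release 29 transcripts, are shown 5′ to 3′ with the stop codon, or the part of it that the gene encodes, in capitals.
MT-ND1: cattccccctcaaaccTA
MT-ND2: ttatactaataatcttaT
MT-ND3: gattagactgaaccgaaT
MT-ND4L: aacctactccaatgcTAA
MT-ND4: ttaccgggttttcctctT
MT-ND5: ctactcctaatcacaTAA
MT-ND6: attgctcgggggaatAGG
MT-ND1 encodes 2 bases of its stop codon, and MT-ND2, MT-ND3 and MT-ND4 encode 1 base each, so the added poly(A) tail completes the codon. MT-ND4L and MT-ND5 end with a whole TAA. MT-ND6, the one MT-ND gene transcribed from the light strand, ends with AGG and is known to carry little or no poly(A). MT-ND4L and MT-ND4 lie on 1 mRNA with overlapping reading frames, and the shared 7 bases are in capitals below.
End of MT-ND4L: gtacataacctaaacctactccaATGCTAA
Start of MT-ND4: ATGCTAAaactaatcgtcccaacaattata
Reads of that mRNA can count for either gene, and MT-ND reads can also match copies of mitochondrial DNA in the nuclear genome, so single MT-ND values are uncertain to that extent.

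Cell libraries held 24.8 to 37.4 M counts and vesicle libraries 1.75 to 24.4 M. The 2077 genes that never exceeded 10 counts in cells received counts in vesicles, and the background estimated from them was 1.83 to 45.6% of the counts in vesicle libraries and 0.0279 to 0.147% in cell libraries. COLO-201, HT-29, LS513, HCT 116 and SW480 had the vesicle libraries of lower background (1.83 to 6.53%), and these were also the deepest 5, so background and depth cannot be told apart. The expected background was 0.272 to 15.2% of the summed nuclear subunit counts in vesicles and 0.107 to 25.5% of the summed MT-ND counts. All 12 listed markers of colorectal epithelium were in the table, at summed levels of 2395 to 19800 CPM (counts scaled to a common library total) in cells and 2087 to 15660 in vesicles. Of the other marker lists, 5 of 6 leukocyte genes summed to 0.0606 to 2735 CPM in cells and 9.64 to 1009 in vesicles, and 6 of 6 erythroid and platelet genes to 0.151 to 8.48 and 3.07 to 342. Of the fibroblast and endothelial genes 5 of 6 summed to 0.444 to 12.2 CPM in cells and 21.3 to 440.4 in vesicles, and 6 of 6 hepatocyte and serum protein genes to 0.481 to 758.8 and 15.1 to 737. Of the 7003 vesicle counts on the fibroblast and endothelial list, 3806 were expected from background. For the erythroid and platelet list it was 606 of 2085, and for hepatocyte and serum protein genes 1476 of 8988. Leukocyte genes had 1460 of 28198 and epithelial genes 3985 of 956131. No listed marker was at 0 in all cell libraries, and the part of RNA of other cell types in the subunit results was not tested. Cell libraries of HCT 116 and LS123 were alike (r = 0.960 over the 1000 most variable genes), as were those of HT-29 and WiDr (r = 0.933), against 0.446 for the next pair, so the 10 lines may not be independent.

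Reads of the mitochondrially encoded subunits were scarcer in vesicles than in cells in most lines, while reads of the nuclear subunits were as frequent or more so in 7 of 10. The 7 MT-ND genes together took 0.273% ± 0.0946 (SD, n = 10) of the counts in cells, from 0.182% in LS1034 to 0.482% in SNU-C1. In vesicles they took 0.0773% ± 0.0866, from 0.00739% in HT-29 to 0.266% in LS513, with a median of 0.0469%. Cell values spanned 2.65-fold across lines and vesicle values 36.0-fold. In HT-29 the vesicle share was 41.1-fold below that of the cells, and in WiDr 16.5-fold, COLO-201 15.7-fold, SNU-C1 11.02-fold and SW480 9.42-fold. LoVo, LS1034 and LS123 stood at 5.77-fold, 3.35-fold and 3.01-fold below. HCT 116 vesicles held the same share as the cells (0.2012 against 0.2007%), and LS513 vesicles held 1.44-fold more. The 38 nuclear subunits together took 0.527% ± 0.0767 of the counts in cells and 0.771% ± 0.252 in vesicles. That share was higher in the vesicles of 7 lines, by up to 2.44-fold in COLO-201, and lower in SNU-C1, WiDr and LS123, which are among the 5 lines of higher background. Counting error was small beside these differences: the widest 95% Wilson interval reached 10.4% of the value to either side for MT-ND (WiDr vesicles, 357 counts) and 2.20% for the nuclear sum (SNU-C1 vesicles). Without molecular identifiers reads are not independent molecules, so these intervals cover counting error only.

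**Figure D1:**
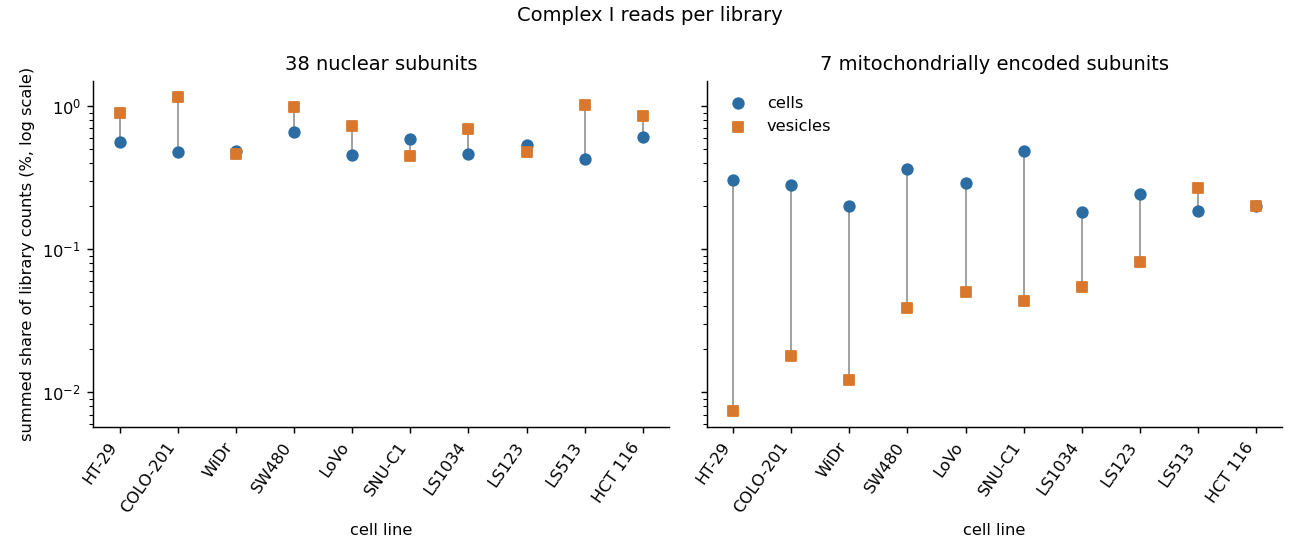
Share of library counts (%, log scale) held by the 38 nuclear subunits (left) and the 7 mitochondrially encoded subunits (right) in cells and vesicles of each line, with a line joining the 2 libraries of a cell line (1 library per point, no error bars). The MT-ND share was lower in vesicles in 8 lines, level in HCT 116 and higher in LS513, while the nuclear share stayed between 0.424 and 1.16% throughout.

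Setting both kinds of subunit against each other within a library removes the scaling between libraries. Cells held 1.23 (SNU-C1) to 3.05 (HCT 116) nuclear subunit reads for each MT-ND read, and vesicles 3.81 (LS513) to 120.6 (HT-29). As a log2 ratio of MT-ND over nuclear reads, cells stood at -1.003 ± 0.38 (SD, n = 10), from -1.61 to -0.30, and vesicles at -4.03 ± 1.67, from -6.91 to -1.93. The ranges did not overlap, and the ratio was lower in the vesicles of 10 of 10 lines. The change within a line was -6.03 in HT-29, -5.25 in COLO-201, -3.97 in WiDr, -3.82 in SW480, -3.19 in LoVo, -3.06 in SNU-C1, -2.31 in LS1034, -1.44 in LS123, -0.73 in LS513 and -0.48 in HCT 116. The mean change was -3.03 ± 1.84 on the log2 scale, -3.11 ± 1.96 without WiDr and LS123, and -3.26 ± 2.55 (n = 5) in the lines of lower background, which hold both the largest and the smallest changes. HT-29 and WiDr, alike in their cells, both lay among the 3 largest changes, and HCT 116 and LS123, also alike in their cells, among the 3 smallest.

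Gene by gene, all 7 MT-ND mRNAs were called lower in vesicles by the edgeR quasi-likelihood test with cell line as block (Benjamini-Hochberg adjusted p below 0.05 over all genes tested), with a median log2 fold change of -3.09. Of all 15130 genes tested, 28.1% were called lower and 28.6% higher, and their median was 0.01. Levels are given as CPM scaled by TMM (the trimmed mean of M-values), and fold changes as log2 of vesicles over cells. MT-ND4, a proton-pumping subunit of the distal arm, had 679.8 CPM in the lowest cell library (WiDr), a median of 998 and 1805 in the highest (SNU-C1). In vesicles it had 19.8 (WiDr), 116 and 916 (LS513). Only the vesicles of LS513 and HCT 116 (743.5) reached the range of the cells, and the next were SW480 vesicles at 162. The log2 fold change of MT-ND4 was -3.10 (SE 0.58, edgeR adjusted p = 0.000385), lower in 9 of 10 lines.

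MT-ND5, the other large pump at the tip of the membrane arm, had 461.5 (LS513), 648 and 1237 CPM (SNU-C1) as lowest, median and highest level in cells. In vesicles it had 14.6 (WiDr), 74.0 and 491 (LS513). The fall was 3.33 on the log2 scale (SE 0.59, edgeR adjusted p = 0.000235), with LS513 alone higher in vesicles than in its cells. MT-ND2, the pump of the proximal arm, ranged from 381 to 1312 CPM in cells (median 590.4) and from 14.9 to 640.2 in vesicles (median 82.8). Its log2 fold change was -3.09 (SE 0.63, edgeR adjusted p = 0.000757), and it was higher in the vesicles of LS513 and HCT 116. In these pumps, too, the vesicles of the 8 other lines lay below every cell library.

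MT-ND1, which helps form the ubiquinone channel, ranged from 188 (HCT 116) to 637 CPM (SNU-C1) in cells, with a median of 348. In vesicles it ranged from 7.885 (HT-29) to 200.7 (LS513), with a median of 46.3. HCT 116 vesicles, at 190.0 against 187.7 CPM in its cells, were the only ones above their own cells, and the log2 fold change was -2.92 (SE 0.54, edgeR adjusted p = 0.0003405). MT-ND3, a small subunit with a loop at the junction of the arms, had 50.3 to 134 CPM in cells (median 76.4) and 1.13 to 70.9 in vesicles (median 4.49). It changed most of the 7 (log2 fold change -3.78, SE 0.65, edgeR adjusted p = 0.000273) and was the only one lower in vesicles in 10 of 10 lines by TMM-scaled CPM. Scaled by library total it was higher in LS513 vesicles (69.4 against 57.0 CPM in the cells). Its vesicle counts ran from 7 in WiDr (10.97 expected from background), 13 in SNU-C1 (6.67) and 15 in LoVo (7.12) to 552 in LS513. MT-ND4L had 144 to 427.5 CPM in cells (median 209.8) and 6.92 to 267 in vesicles (median 36.3), and its log2 fold change was -2.74 (SE 0.63, edgeR adjusted p = 0.00223). MT-ND6 had 92.7 to 233 CPM in cells (median 132) and 4.215 to 130.4 in vesicles (median 18.8), and its log2 fold change was -2.80 (SE 0.53, edgeR adjusted p = 0.000454).

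In the 5 lines of lower background, MT-ND3 (-3.12, edgeR adjusted p = 0.0444) and MT-ND5 (-2.77, edgeR adjusted p = 0.0449) were still called and the other 5 were not (edgeR adjusted p from 0.0525 to 0.0938), with a median of -2.54. There 19.0% of all genes tested were called lower, and LS513 and HCT 116 make up 2 of the 5 lines. Leaving out LS513 and HCT 116, chosen after their values were seen, left all 7 called lower at a median of -3.77, beside 24.9% of all genes. With the expected background subtracted all 7 were called lower at a median of -2.29, where 19.4% of all genes were.

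Within the MT-ND reads the leading genes were the same in both compartments. Per kilobase of transcript, MT-ND4L (22.6% ± 2.40, SD, n = 10) and MT-ND4 (22% ± 1.85) held the largest parts of the MT-ND level in cells and MT-ND3 the smallest (7.34% ± 1.13). In vesicles MT-ND4L held 27.4% ± 6.85, MT-ND4 21.2% ± 4.12 and MT-ND3 4.43% ± 1.32. MT-ND4L, MT-ND4 and MT-ND2 led in both compartments and MT-ND3 came last. In cells MT-ND4L and MT-ND4 differed by less than their SD. Both were scaled by their annotated lengths, although they lie on 1 mRNA. MT-ND6 made up 4.65% ± 0.821 of the MT-ND reads in cells and 5.97% ± 3.27 in vesicles, where WiDr alone stood high at 15.1% (54 of 357 reads, with 10.97 expected from background) and the other 9 lay between 3.68 and 5.88%. The 6 other mitochondrial mRNAs, which encode subunits of complexes III, IV and V, were all called lower as well (28.1% of all genes tested). Their median was -3.62, ranging from -3.78 to -2.35. With background subtracted 5 were called lower, and in the lines of lower background 4 (19.4% and 19.0% of all genes). Their summed share was lower in the vesicles of 10 of 10 lines, LS513 (1.32-fold) and HCT 116 (1.17-fold) included. MT-CYB of complex III fell by 3.78 (SE 0.60, edgeR adjusted p = 9.71e-05), and MT-CO2 of complex IV and MT-ATP6 of complex V were at -3.78 and -3.51. MT-ND genes therefore took a larger part of all mitochondrial mRNA reads in vesicles (38.2% ± 5.37) than in cells (32.8% ± 4.95), higher in 8 of 10 lines, most in LS513 (28.97% in cells, 43.7% in vesicles).

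**Figure D2:**
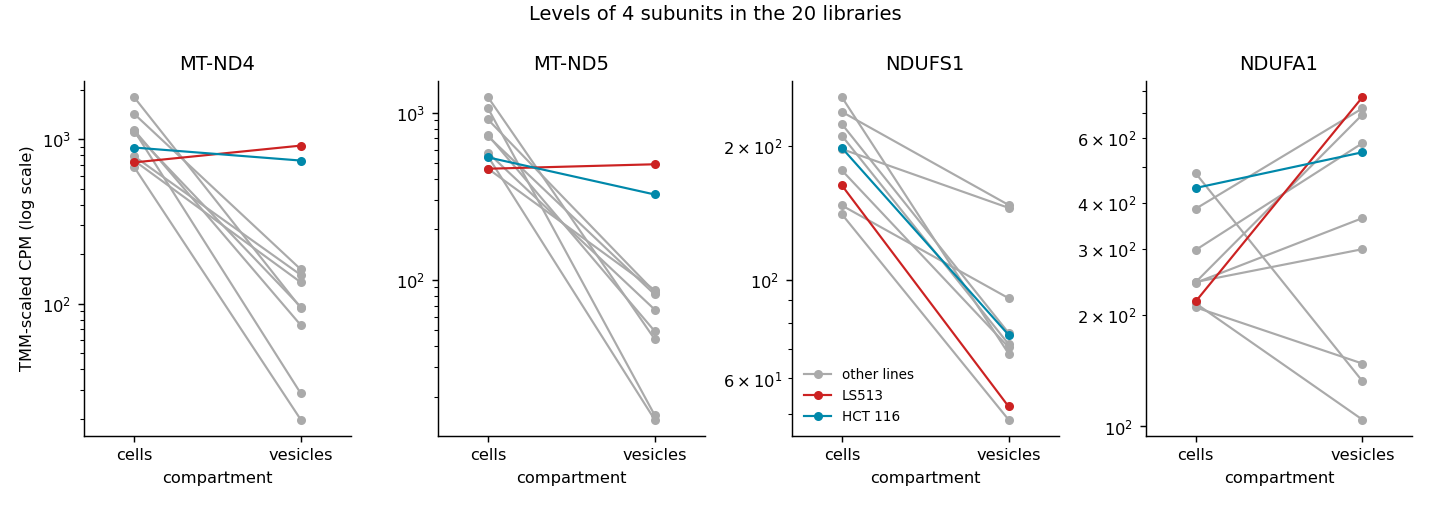
Level (TMM-scaled CPM, log scale) of MT-ND4, MT-ND5, NDUFS1 and NDUFA1 in cells and vesicles, with 1 line joining the 2 libraries of each cell line, LS513 in red, HCT 116 in blue and the 8 others in grey. MT-ND4 and MT-ND5 were lower in the vesicles of the 8 others, NDUFS1 was lower in all 10 lines, and NDUFA1 was higher in 7 lines and lower in 3.

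Over all 10 lines, without background subtraction, the nuclear subunits stayed near the middle of all genes tested. Of 38, 3 were called higher and 4 lower (edgeR; 28.6% and 28.1% of all genes tested), and their median log2 fold change was 0.12, ranging from -1.28 to 1.15. The median lay 0.09 to 0.10 above that of all genes under TMM, DESeq2, library-size and upper-quartile scaling, which put the median of all genes at 0.01, 0.38, 0.48 and 0.76. The calls moved with that shift of all genes. DESeq2 size factors gave 12 subunits higher and 1 lower (35.2% and 18.5% of all genes), the DESeq2 Wald test 15 and 2 (41.4% and 20.8%), library sizes 18 and 2 (36.6% and 16.3%) and upper quartiles 25 and 1 (46.0% and 11.6%). All 38 passed the filter on low counts, and none of the 45 subunits had vesicle levels that all lay outside the range of the cells, where 8.57% of all genes lay wholly above and 4.35% wholly below.

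More nuclear subunits were called higher in the lines of lower background and with background subtracted. The same held among genes with at least 1 CPM in every cell library, and the cause was not tested. In the 5 lines of lower background, 23 of 38 nuclear subunits were called higher and 1 lower, with a median of 0.78, where 19.5% and 19.0% of all genes were called and the median of all genes was 0.10. With the expected background subtracted in all 10 lines, 20 were called higher and 1 lower (median 0.77), against 15.3% and 19.4% of all genes and a median of all genes of -0.16. Of these, 17 subunits were called higher in both. Among genes with at least 1 CPM in every cell library, 22 of 37 nuclear subunits were called higher and 1 lower, against 23.1% and 21.4% of all such genes. The nuclear median was 0.73 there, and that of all such genes 0.06. By TMM-scaled CPM, 27 of 38 were higher in the vesicles of every line of lower background and 2, NDUFS1 among them, lower in every one, beside 25.5% and 23.4% of all genes tested. In every line of higher background 3 were higher and 10 lower, beside 29.9% and 29.5%. The difference between the 2 sets of lines was not tested. The count called higher over all 10 lines also moved with single lines, to 6 without SNU-C1 or without LS123 and 5 without WiDr. The count called lower fell to 1 without LoVo (15.8% of all genes, with 4 subunits and 31.5% of all genes higher). It fell to 2 without LS1034, SNU-C1, WiDr or LS123. Leaving out any of these left 25.9 to 27.3% of all genes called higher and 25.2 to 27.1% lower.

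**Figure D3:**
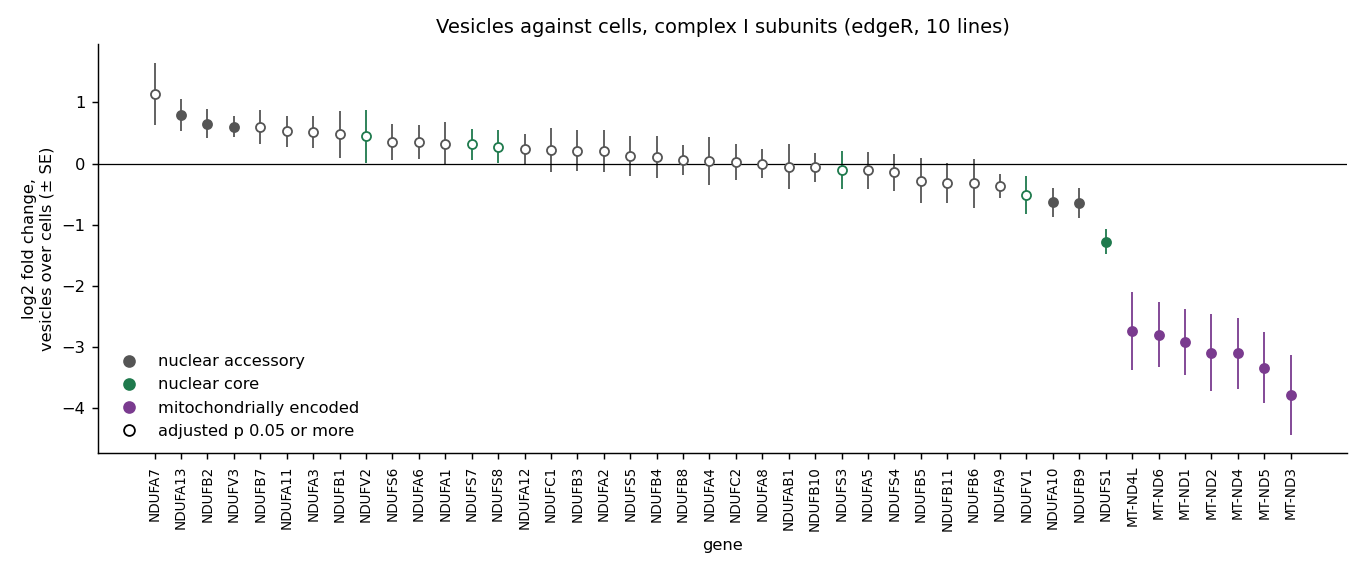
Log2 fold change of vesicles over cells (edgeR, 10 lines, bars are ± SE) for the subunits reported, coloured by kind and filled where the adjusted p was below 0.05. The nuclear subunits spread around 0, from 1.15 (NDUFA7) to -1.28 (NDUFS1), and the 7 MT-ND genes stand apart between -2.74 and -3.78.

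Of the 7 nuclear core subunits 0 were called higher and 2 lower (edgeR; 28.6% and 28.1% of all genes tested), with a median of -0.10. In the lines of lower background, and among genes with at least 1 CPM in every cell library, 3 were called higher and 1 lower, with background subtracted 1 and 1, and without LoVo 0 and 1. The shares of all genes higher and lower were 19.5% and 19.0%, 23.1% and 21.4%, 15.3% and 19.4%, and 31.5% and 15.8%, in that order. NDUFS1, the largest core subunit, carries several iron-sulfur clusters of the N module. It had 140.4 (LS1034), 197 and 257 CPM (WiDr) as lowest, median and highest level in cells, and 48.5 (LS1034), 73.4 and 147 (HT-29) in vesicles. The ranges overlapped only through the vesicles of HT-29 and SW480 (145), and NDUFS1 was lower in vesicles in 10 of 10 lines, by 1.28 on the log2 scale (SE 0.20, edgeR adjusted p = 0.000109). It was the 1 nuclear subunit called lower with background subtracted (-0.63, edgeR adjusted p = 0.0133) and within the lower-background lines (-0.945, edgeR adjusted p = 0.0221).

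NDUFS7, which passes electrons from the last cluster to ubiquinone, had 18.3 (COLO-201), 69.5 and 105 CPM (SNU-C1) in cells and 33.9 (WiDr), 88.9 and 131 (LS513) in vesicles, and its log2 fold change was 0.32 (SE 0.25, edgeR adjusted p = 0.295) over all lines and 0.91 in those of lower background (edgeR adjusted p = 0.0193). NDUFS8, which holds the clusters leading to it, stood at 0.28 (SE 0.27, edgeR adjusted p = 0.389) over all lines. It was called higher in the lines of lower background (0.89, edgeR adjusted p = 0.009295) and with background subtracted (0.975, edgeR adjusted p = 0.00475). NDUFS3, a structural part of the Q module, was at -0.10 (SE 0.31) over all lines and at 0.67 in the lines of lower background (edgeR adjusted p = 0.0323). NDUFV1, which binds flavin and NADH, ranged from 121 to 262 CPM in cells (median 178) and from 28.8 (SNU-C1) to 367 (SW480) in vesicles (median 142.5). It was higher in the vesicles of 5 lines and lower in 5, and its log2 fold change was -0.51 (SE 0.31, edgeR adjusted p = 0.175). NDUFV2, its partner with an iron-sulfur cluster, had 1.66 to 4.49 CPM in cells and 1.41 to 6.68 in vesicles, 29.98% of its vesicle counts expected from background, so its log2 fold change of 0.44 (SE 0.44) is imprecise. With background subtracted NDUFV2 stood at -0.56 (edgeR adjusted p = 0.660).

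Among the 31 accessory subunits 3 were called higher and 2 lower (edgeR, beside 28.6% and 28.1% of all genes tested), with a median of 0.13. NDUFV3, a small accessory subunit of the N module, had 29.4 (WiDr), 45.2 and 81.2 CPM (SW480) in cells and 35.3 (WiDr), 73.0 and 139.7 (SW480) in vesicles. It was higher in vesicles in 10 of 10 lines, by 0.60 on the log2 scale (SE 0.18, edgeR adjusted p = 0.00872), although the ranges of both compartments overlapped, and the call was lost without the cell line block (0.66, edgeR adjusted p = 0.0535). NDUFA13, also known as GRIM-19 and part of the proximal arm, had 7.43 (LoVo), 11.2 and 16.95 CPM (SW480) in cells and 9.78 (WiDr), 18.4 and 34.2 (LS1034) in vesicles. It was higher in 10 of 10 lines, by 0.80 (SE 0.26, edgeR adjusted p = 0.0174), with 14.3% of its vesicle counts expected from background, and not called once that was subtracted (0.95, edgeR adjusted p = 0.0886). NDUFB2 of the distal arm had 110.2 (LS1034), 157 and 204 CPM (SW480) in cells and 83.2 (LS123), 236 and 556 (LS513) in vesicles. It was higher in 8 of 10 lines, lower in WiDr and LS123, by 0.66 (SE 0.24, edgeR adjusted p = 0.0312), and the call was lost without COLO-201, HT-29, LS513, HCT 116 or SW480 (edgeR adjusted p from 0.0540 to 0.0765).

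The other accessory subunits at the upper end were not called. NDUFA7 of the N module had the highest log2 fold change, 1.15 (SE 0.51, edgeR adjusted p = 0.0664), from 0.583 to 2.26 CPM in cells and 1.10 to 8.22 in vesicles, with 49.1% of its vesicle counts expected from background. With background subtracted NDUFA7 stood at -0.23 (edgeR adjusted p = 0.871). NDUFB7, a distal-arm subunit held by disulfide bonds in the intermembrane space, stood at 0.60 (SE 0.27, edgeR adjusted p = 0.0762), and at 1.13 in the lines of lower background (edgeR adjusted p = 0.00674). At the lower end, NDUFB9, which binds an acyl carrier protein at the distal arm, had 137 (LS513), 268.5 and 607 CPM (WiDr) in cells and 72.4 (LS1034), 155 and 368 (HT-29) in vesicles. It was lower in 8 of 10 lines, by 0.64 (SE 0.25, edgeR adjusted p = 0.0367), but stood at 0.10 under upper-quartile scaling and with background subtracted. NDUFA10, a proximal-arm subunit with a nucleoside-kinase fold, had 129.6 (COLO-201), 172 and 269 CPM (SNU-C1) in cells and 62.8 (WiDr), 106 and 208 (LS513) in vesicles. It was lower in 8 of 10 lines, by 0.63 (SE 0.23, edgeR adjusted p = 0.0317), and stood at 0.11 under upper-quartile scaling and -0.02 with background subtracted. NDUFA9 (-0.36), NDUFB6 (-0.32) and NDUFB11 (-0.31) were not called, at edgeR adjusted p of 0.122, 0.517 and 0.427.

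Grouped by place in the enzyme, 1 of 10 N-module subunits was called higher and 1 lower (median 0.29), 0 and 1 of 6 in the Q module (median -0.10), 1 and 1 of 9 in the proximal membrane arm (median 0.22) and 1 and 1 of 11 in the distal arm (median 0.06). In the lines of lower background 5 were called higher and 1 lower in the N module, 4 and 0 in the Q module, 7 and 0 in the proximal arm and 5 and 0 in the distal arm. Of all genes tested, 28.6% and 28.1% were called higher and lower over all lines, and 19.5% and 19.0% in those of lower background. No test between places was made. Both subunits with known roles outside complex I lay in the middle over all lines and were called higher in the lines of lower background. NDUFAB1, the mitochondrial acyl carrier protein, ranged from 171.5 to 538.6 CPM in cells and from 35.4 (SNU-C1) to 639 in vesicles, and its log2 fold change was -0.05 (SE 0.36, edgeR adjusted p = 0.921) over all lines and 0.78 in those of lower background (edgeR adjusted p = 0.0176). NDUFA4, now assigned to complex IV, ranged from 303 to 989 CPM in cells and from 119.9 (SNU-C1) to 1453 (COLO-201) in vesicles, at 0.04 (SE 0.40, edgeR adjusted p = 0.939) over all lines and 0.89 in those of lower background (edgeR adjusted p = 0.0203). Without NDUFA4 the mean change in the log2 ratio of MT-ND to nuclear reads was still -3.03.

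Longer nuclear subunit transcripts tended to stand lower in vesicles. Across the 38 subunits the log2 fold change was set against transcript length (median length of the principal transcripts in GENCODE release 29). Spearman rho was -0.412 over all lines, -0.504 in the lines of lower background and -0.340 with background subtracted. By the summed length of all annotated exons of a gene rho was weaker, at -0.237, -0.342 and -0.308 in the same order. These are descriptions over genes that share libraries, and their GC content had a rho of 0.410 with the log2 fold change. The 19 shorter transcripts (417 to 930 bases) had a median of 0.21 and the 19 longer (958 to 8363 bases) of -0.10. NDUFS1, at 2371 bases, lay below other subunits of that length, and NDUFV3, at 4676 bases, lay above. The MT-ND genes stand outside it: MT-ND3 and MT-ND4L have the shortest annotated lengths of the 45 (346 and 297 bases) and lay below every nuclear subunit. MT-ND4L shares 1 mRNA with MT-ND4, so its annotated length is not that of the mRNA.

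**Figure D4:**
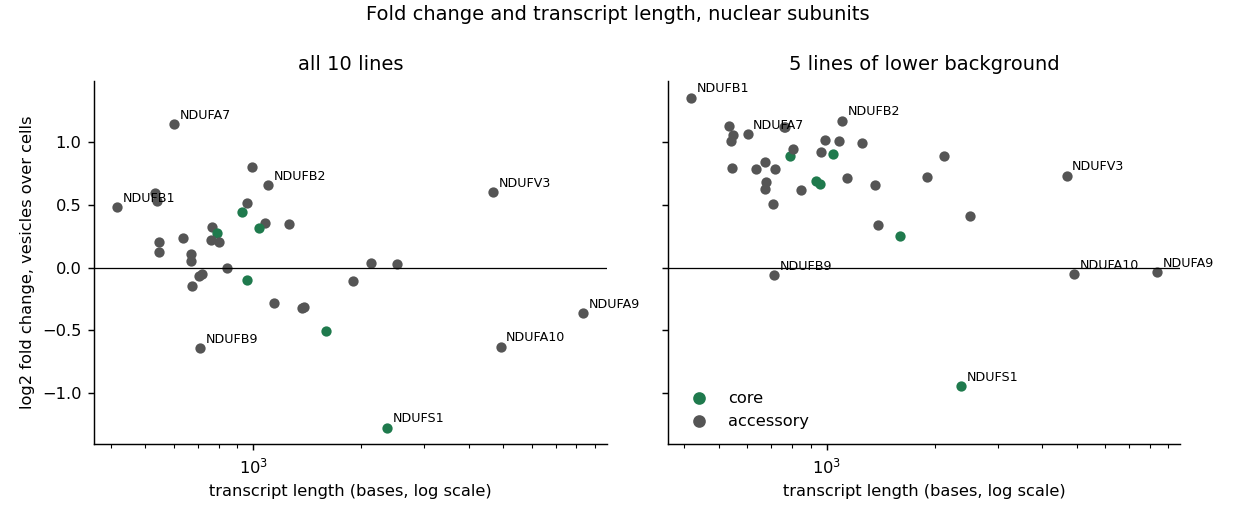
Log2 fold change of vesicles over cells against transcript length (bases, log scale) for the nuclear subunits reported, over all 10 lines (left) and in the 5 lines of lower background (right), with core subunits in green and accessory ones in grey. Spearman rho over all 38 was -0.412 and -0.504, and most subunits lie above 0 in the right panel while NDUFS1 stays below.

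Levels per kilobase of transcript placed NDUFS5, an intermembrane-space subunit of the proximal arm (500.5 ± 179 TMM-scaled CPM per kilobase, SD, n = 10), NDUFAB1 (446 ± 126) and NDUFB9 (414.5 ± 228.5) highest among the nuclear subunits in cells. These neighbours differed by less than their SD. The lowest were NDUFA7 (2.57 ± 0.976), NDUFV2 (3.25 ± 0.962) and NDUFA9 (8.18 ± 3.97). NDUFA9 was divided by the longest transcript of the 38 (8363 bases). Before that its mean in cells was 68.4 CPM, against 1.55 for NDUFA7 and 3.02 for NDUFV2. For NDUFA7, NDUFV2, NDUFA9 and NDUFA13 the annotation has other genes overlapping their exons on the same strand (456, 771, 1709 and 568 bases). Such overlaps also occur in subunits of higher level, such as NDUFS3 (721 bases), NDUFV1 (423) and NDUFS1 (391). Genes on the opposite strand overlap the exons of NDUFS7 (3700 bases), NDUFB2 (1560), NDUFS1 (1430), NDUFB9 (864) and NDUFB11 (636), among others. The part of these overlaps in the differences between compartments was not tested. NDUFB4 and NDUFA5 have 12 named pseudogenes each, and NDUFS5 has 6. How the authors' counting treated such reads is not given in the sources used here, so these levels are uncertain. The MT-ND genes lay between 248 ± 73.2 (MT-ND3) and 781 ± 283 (MT-ND4L) CPM per kilobase in cells and between 44.1 ± 68.4 and 235 ± 312 in vesicles.

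Across the 10 lines the cell levels of the nuclear subunits varied less than those of most genes, with a median SD of log2 CPM of 0.46 against 0.66 for all genes tested. The most variable in cells were NDUFB9 (SD 0.77, 4.42-fold from LS513 to WiDr), NDUFS7 (SD 0.72, 5.75-fold from COLO-201 to SNU-C1) and NDUFC2, a membrane-arm subunit (SD 0.70, 5.37-fold from LS123 to HCT 116). NDUFC2 had 41.6, 141.6 and 223.5 CPM as lowest, median and highest in cells and 32.6 (SNU-C1), 153 and 337 (COLO-201) in vesicles, and its log2 fold change was 0.03 (SE 0.30, edgeR adjusted p = 0.948). In vesicles the median SD of the nuclear subunits was 0.95, close to the 0.99 of all genes. Tested genes that averaged 10 CPM or more across the cell libraries had a median SD of 0.86 in vesicles and 0.62 in cells. Beside these better-expressed genes the nuclear subunits varied more in vesicles and less in cells. The median SD of the MT-ND genes was 0.49 in cells and 1.74 in vesicles.

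Whether a line with a high level in its cells also had a high level in its vesicles differed between both kinds of subunit. For the nuclear subunits the Spearman rho between cells and vesicles over the 10 lines had a median of 0.388 (from -0.079 to 0.891). It was above 0 for 36 of 38, beside a median of 0.358 and 83.6% above 0 for all genes tested. Tested genes that averaged 10 CPM or more across the cell libraries had a median of 0.406, with 87.7% above 0. Among the nuclear subunits the highest were NDUFB2 (0.891), NDUFV3 (0.855) and NDUFA13 (0.806), and the lowest NDUFAB1 (-0.079) and NDUFA10 (-0.067). For the 7 MT-ND genes the median was -0.455 (from -0.636 for MT-ND5 to -0.079 for MT-ND2), and 0 of 7 were above 0. These are descriptions over 10 lines that share depth and background, and the 7 MT-ND genes are not independent of one another.

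Genes that build complex I or serve the mitochondrial mRNAs gave a mixed picture. Of 19 assembly factors 2 were called higher and 4 lower (edgeR; 28.6% and 28.1% of all genes tested), with a median of -0.03. The lower calls were lost in the lines of lower background (8 higher and 0 lower, beside 19.5% and 19.0% of all genes). They were also lost with background subtracted (7 and 0, beside 15.3% and 19.4%). Genes with at least 1 CPM in every cell library gave 11 and 0 (23.1% and 21.4%). The same held without LoVo (4 and 0, beside 31.5% and 15.8%) and without SNU-C1 (3 and 0, beside 27.3% and 27.1%). Leaving out LS1034 or WiDr gave 2 and 0 each (25.9% and 25.2%, and 26.7% and 26.5%). Without the cell line block there were 2 and 0 (22.9% and 22.7%). Without LS123, 1 was left (26.8% of all genes lower). DESeq2 size factors, library sizes and upper quartiles gave 4, 8 and 11 higher and 0 lower. Of all genes, these scalings put 35.2%, 36.6% and 46.0% higher and 18.5%, 16.3% and 11.6% lower. NDUFAF8, which stabilises the assembly factor NDUFAF5, had 36.0 (LS1034), 51.3 and 94.6 CPM (LS123) in cells and 66.0 (SNU-C1), 162 and 337 (HCT 116) in vesicles. It was higher in 10 of 10 lines, by 1.57 (SE 0.23, edgeR adjusted p = 5.14e-05). NDUFAF6, an early assembly factor, was higher by 0.72 (SE 0.20, edgeR adjusted p = 0.00671). ACAD9, an acyl-CoA dehydrogenase that also assembles the membrane arm, was at -0.71 (SE 0.27, edgeR adjusted p = 0.0348) and at 0.03 under upper-quartile scaling. Of 4 subunits of complex II, the chain's wholly nuclear complex, SDHA, its flavoprotein, was called lower (-1.64, SE 0.26, edgeR adjusted p = 9.1e-05), and SDHC (-0.65) and SDHD (-0.24) were not (edgeR adjusted p = 0.156 and 0.605). Of 14 nuclear genes for mitochondrial transcription and mRNA handling 0 were called higher and 10 lower (28.6% and 28.1% of all genes tested), with a median of -0.999, among them LRPPRC (-2.17), which stabilises mitochondrial mRNAs, FASTKD5 (-2.06), which processes them, and the helicase SUPV3L1 (-1.23), with edgeR adjusted p of 6.45e-05, 4.86e-05 and 0.000237. With background subtracted 1 of the 14 was called higher and 3 lower, where 15.3% and 19.4% of all genes were, so the share called lower was then near that of all genes. Without LoVo 6 were called lower, where 15.8% of all genes were.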

How the data were processed

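The authors deposited 1 table of unnormalised read counts, 17113 protein-coding genes by 20 libraries, each column matching 1 library title. STAR, featureCounts and hg19 are named per the submitters' processing notes. Their versions, the annotation and the strandedness of counting are not given in the sources used here. The genes compared, lists and rule for named genes (all MT-ND and nuclear core subunits, the 5 highest and 5 lowest others by log2 fold change, the 3 highest and 3 lowest by level, the 3 most variable, NDUFA4, NDUFAB1 and at most 3 genes of each further list) were chosen with earlier results of these data known.

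All genes were fitted with edgeR 4.0.16 in R 4.3.3 (quasi-likelihood test, robust, TMM scaling, filterByExpr, cell line as block), p-values adjusted by Benjamini-Hochberg over 15130 genes with a threshold of 0.05. SEs were obtained from the fold change and F. Lines pair the libraries per the labels, and the deviations of a line in cells and vesicles correlated at 0.106 to 0.574. With 1 library per line and compartment, p-values measure spread between lines, and spread between cultures was not measured. On simulated counts the test was checked for recovery of known changes. Expected background came from 2077 genes that never exceeded 10 counts in cells, averaged in 8 classes of length by 3 of GC after trimming the top 2%. Lengths and sequences came from GENCODE release 29, matched for 17104 genes (99.9%). Single-gene values of 1 subunit are not reported here, and it is not drawn in the plots by gene. No hg19 annotation was used, and no coordinates are given. A subunit at 0 counts could still have up to 3 counts, 0.0802 to 0.121 CPM in cells and 0.123 to 1.72 in vesicles. Alternatives were other scalings and filters, DESeq2 1.42.0, no block, background subtraction and fewer lines.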

Additional observations from a re-analysis of the deposited data

Results flagged for a closer look

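In 6 of 67 groups of 10 libraries tested, 1 library stood apart from the others by more than Dixon's 95% criterion, where chance flags about 1 in 20. WiDr vesicles had 15.13% of their MT-ND reads on MT-ND6, with SNU-C1 next at 5.88%. SNU-C1 cells had 1312 CPM (TMM-scaled, as all levels here) of MT-ND2, above LoVo at 696. COLO-201 cells had 18.31 CPM of NDUFS7, below HCT 116 at 44.9. SW480 vesicles had 152.4 CPM of NDUFA9, above LoVo at 65.6. SNU-C1 vesicles, the shallowest library and the one with the most estimated background (45.6% of counts), had 42.57 CPM of NDUFS5, below LS123 at 186, and 35.37 CPM of NDUFAB1, below WiDr at 187. The part of depth or background in these values was not tested.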

How the results depend on the processing

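The 7 MT-ND genes were called lower under every scaling, filter, test and left-out line tried, except in the 5 lines of lower background (2 called) and there with background subtracted too (0 called by edgeR, with 5 at an unadjusted p below 0.05), and their median stayed between -3.77 and -2.11. The mean log2 change in the MT-ND to nuclear ratio lay between -3.64 and -2.70 in all alternatives. Counts of nuclear subunits (3 higher and 4 lower) depended on the choices. Scaling by DESeq2 gave 12 and 1, by library size 18 and 2, by upper quartile 25 and 1, and the DESeq2 Wald test 15 and 2, with the shift of all genes given above. Genes with at least 1 CPM in every cell library gave 22 and 1, background subtraction 20 and 1 and lines of lower background 23 and 1. Both together gave 30 and 1 (median 1.06), beside 13.7% and 18.3% of all genes and a median of all genes of -0.15. Without WiDr and LS123 there were 7 and 1 (25.5% and 25.2% of all genes). Without LS513 and HCT 116 there were 1 and 4 (26.9% and 24.9%). Leaving out 1 line gave 2 to 6 higher and 1 to 4 lower, beside 25.9 to 31.5% and 15.8 to 28.0% of all genes. Without the cell line block 4 were higher and 2 lower (22.9% and 22.7% of all genes), and the MT-ND median was -2.11. Signs against the all-line values also changed. Under upper-quartile scaling 13 of 38 nuclear subunits went from below to above 0 (3 called higher), with the shift of all genes, and among genes named and called lower these were NDUFB9 (0.10) and NDUFA10 (0.11), with ACAD9 (0.0302) among assembly factors. With background subtracted 12 went above 0 (2 called), NDUFB9 (0.10) among them, and 2 below (0 called), NDUFA7 (-0.23) and NDUFV2 (-0.56). In the lines of lower background 10 went above 0 (4 called), NDUFS3 (0.67) and NDUFAB1 (0.78) among those called, as was SDHD (0.77) of complex II. With background subtracted there as well 13 went above 0 (9 called), among them NDUFS3 (0.96), NDUFV1 (0.54), NDUFB9 (0.24), NDUFA10 (0.23), NDUFB6 (0.97) and NDUFAB1 (1.09), as did SDHD (1.07). The cause was not tested. The combined setting, TMMwsp scaling and the removal of LS513 and HCT 116 were chosen after seeing the data. NDUFA7 and NDUFV2, at most 67 and 124 counts in a cell library, are limited by depth.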
